A study of Mus musculus with 203 samples.

Results

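The genes described are 8 genes of B cells and of the plasma cells that B cells become, Ms4a1, Pax5, Irf4, Prdm1, Tnfrsf17, Sdc1, Mzb1 and Jchain. They were chosen by name, and their Ensembl identifiers were found among the 43346 genes of the counts table. Airway and parenchyma of the lung, separated by blunt dissection, were sequenced as bulk RNA from female Balb/C mice aged 18 to 20 weeks, with no other genetic change named. In the 3 week model mice received intranasal house dust mite extract (HDM) or phosphate buffered saline (PBS) on 5 days a week. In the 11 week model mice received HDM or PBS, breathed cigarette smoke (CS) or normal air (AIR) over the last 8 weeks, and were given dexamethasone (DEX), a glucocorticoid drug, in week 11 or not. This gave 20 groups of week, tissue and exposure with 10 libraries in each group (160 at 11 weeks) except airway PBS (11) and parenchyma PBS (12) at 3 weeks. DEX was given in the 11 week model alone, so no DEX or smoke comparison could be made at 3 weeks. The labels name each library by a code and do not say which libraries came from one mouse, so p-values measure the spread between these libraries.

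B cells carry the surface protein CD20, encoded by Ms4a1, and keep their identity through the transcription factor PAX5. When a B cell meets antigen and T cell help it may pass through a germinal centre and mature into a plasma cell, a change in which IRF4 and BLIMP1, encoded by Prdm1, turn off the B cell programme, PAX5 included. Plasma cells display the survival receptor BCMA (Tnfrsf17) and syndecan-1 (Sdc1), assemble immunoglobulin with the chaperone MZB1, and join IgA and IgM into polymers with the joining chain (Jchain). Sdc1 is also a major proteoglycan of epithelium, Prdm1 is made by T cells and macrophages, and Irf4 by T cells and dendritic cells, so that in a whole tissue these 3 genes are not markers of plasma cells alone.

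Library totals ran from 13003087 to 40240680 estimated counts, with a median of 28090612. Levels below are CPM values, counts relative to the library total and scaled by TMM factors over all libraries. The airway list (Scgb1a1, Foxj1, Acta2, Myh11) had 4 of 4 genes higher in airway than in parenchyma of PBS mice at 3 weeks and 4 of 4 at 11 weeks, and the parenchyma list (Sftpc, Ager, Hopx, Sftpa1) had 4 of 4 lower at both times, so in PBS mice the tissue labels matched their markers. In HDM.AIR mice at 11 weeks the means kept these directions but stood closer. Scgb1a1 had 16148 CPM in airway and 13865 CPM in parenchyma, and Sftpc 7794 and 10063 CPM. Mean Acta2 in airway was 268 CPM with PBS.AIR and 99.3 CPM with HDM.AIR. Airway libraries also differed in Glycam1, a mucin of the high endothelial vessels of lymph nodes, which reached at least 25 CPM in 30 airway libraries and in 1 parenchyma library. Results that rest on airway libraries are given without these 31 libraries where that changes a call. In addition 7 libraries, 1 of them among the 31, stood apart from their group in 1 member or more. A rule given at the end, applied to groups of 10 libraries, marked 6 of them, no more than chance would mark. The other, described next, lay in a group of 11 and was added outside that rule. In 1 airway PBS library at 3 weeks Jchain reached 4066 CPM against 132.7 to 1209 CPM in the other 10, and its Ighg1 was 4373 CPM while its Ms4a1 was 44.3 CPM and its Glycam1 5.25 CPM. It was kept in the values below.

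The 8 genes lie on 8 chromosomes, and all are protein coding in GENCODE M21 on build mm10. Positions are given here for 7 of them. Ms4a1 spans chr19:11249675-11266241 on the minus strand and Pax5 chr4:44524757-44710487 on the minus strand. Irf4 spans chr13:30749226-30766976 on the plus strand and Prdm1 chr10:44437177-44528501 on the minus strand. Tnfrsf17 spans chr16:11313812-11320074 on the plus strand, Sdc1 chr12:8771323-8793715 on the plus strand and Jchain chr5:88519809-88527891 on the minus strand.

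RefSeq promoter windows of 300 bases (250 before to 50 after the start, build GRCm38.p6) were at hand for 6 of the 8 genes. They are shown for Jchain and Tnfrsf17, the plasma cell genes whose HDM effect differed most between the 2 durations in airway and parenchyma, and for Irf4, the factor that acts before them. Capitals mark matches on either strand among 8 motifs searched: the octamer ATGCAAAT, the ETS-IRF composite, the PU.1 site GAGGAAGT, the E-box CAGGTG, the TATA box TATAAA, an NF-kB site, the XBP1 core TGACGTG and the glucocorticoid response element. The 3 motifs given by name alone are of at least 10 letters.
Jchain promoter (chr5:88527848-88528147, minus strand): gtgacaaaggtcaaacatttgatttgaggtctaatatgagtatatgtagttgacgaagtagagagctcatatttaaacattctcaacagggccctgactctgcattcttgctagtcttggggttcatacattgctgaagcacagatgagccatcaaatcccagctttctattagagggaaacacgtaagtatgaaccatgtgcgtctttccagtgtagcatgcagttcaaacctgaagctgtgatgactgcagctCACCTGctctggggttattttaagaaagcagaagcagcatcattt
Tnfrsf17 promoter (chr16:11313559-11313858, plus strand): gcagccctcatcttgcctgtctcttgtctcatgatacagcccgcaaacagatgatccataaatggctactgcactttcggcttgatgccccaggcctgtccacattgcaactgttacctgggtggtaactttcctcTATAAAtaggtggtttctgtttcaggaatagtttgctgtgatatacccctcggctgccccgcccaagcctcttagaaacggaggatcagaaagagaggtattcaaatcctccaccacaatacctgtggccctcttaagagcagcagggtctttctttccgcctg
Irf4 promoter (chr13:30748983-30749282, plus strand): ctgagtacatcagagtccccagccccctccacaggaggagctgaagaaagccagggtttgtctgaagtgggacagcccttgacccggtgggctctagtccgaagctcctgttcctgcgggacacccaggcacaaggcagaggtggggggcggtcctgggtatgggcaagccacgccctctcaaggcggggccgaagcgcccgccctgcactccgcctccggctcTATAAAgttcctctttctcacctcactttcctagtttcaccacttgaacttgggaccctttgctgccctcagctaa
Jchain held an E-box match 5 bases after the start on the opposite strand, and Prdm1 held one 87 bases before its start. The Prdm1 window (chr10:44458699-44458998) lies inside the gene span given above, so its RefSeq start is not the outer end of that span. A TATA box match lay 26 bases before the start of Irf4, and one lay farther before that of Tnfrsf17. The E-box letters were found in 20.2% and the TATA box letters in 13.6% of 32851 RefSeq promoter windows, so neither was rare. No match of the other 6 motifs lay in the 6 windows, which says only that these letters are not there.

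Across the 20 groups the plasma cell genes Jchain and Mzb1 had the widest range of mean levels and Sdc1 and Prdm1 the narrowest. The mean of the highest group was 369.6 times that of the lowest for Jchain, 145.9 times for Mzb1 and 52.7 times for Tnfrsf17, against 29.2 times for Ms4a1, 20.3 times for Pax5, 13.8 times for Irf4, 2.52 times for Prdm1 and 1.59 times for Sdc1. Airway of HDM.AIR mice at 11 weeks held the highest mean for Irf4, Prdm1, Tnfrsf17, Mzb1 and Jchain, whereas airway of HDM mice at 3 weeks held it for Ms4a1 and Pax5. Parenchyma of 11 week PBS mice given DEX, with or without smoke, held the lowest mean for 6 genes, the exceptions being Prdm1 and Sdc1. When the groups were set in order, at most 2 of 19 neighbouring pairs differed by more than the larger of their SDs for any gene. Per kilobase of exon, the medians in 11 week HDM.AIR airway were 3309 CPM per kb for Jchain, 216 for Mzb1, 83.5 for Sdc1, 19.5 for Ms4a1, 13.5 for Irf4, 7.05 for Tnfrsf17, 4.49 for Prdm1 and 0.893 for Pax5. In the matching PBS.AIR airway Jchain and Sdc1 were much closer, at 71.8 and 55.3 CPM per kb.

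**Figure D1:**
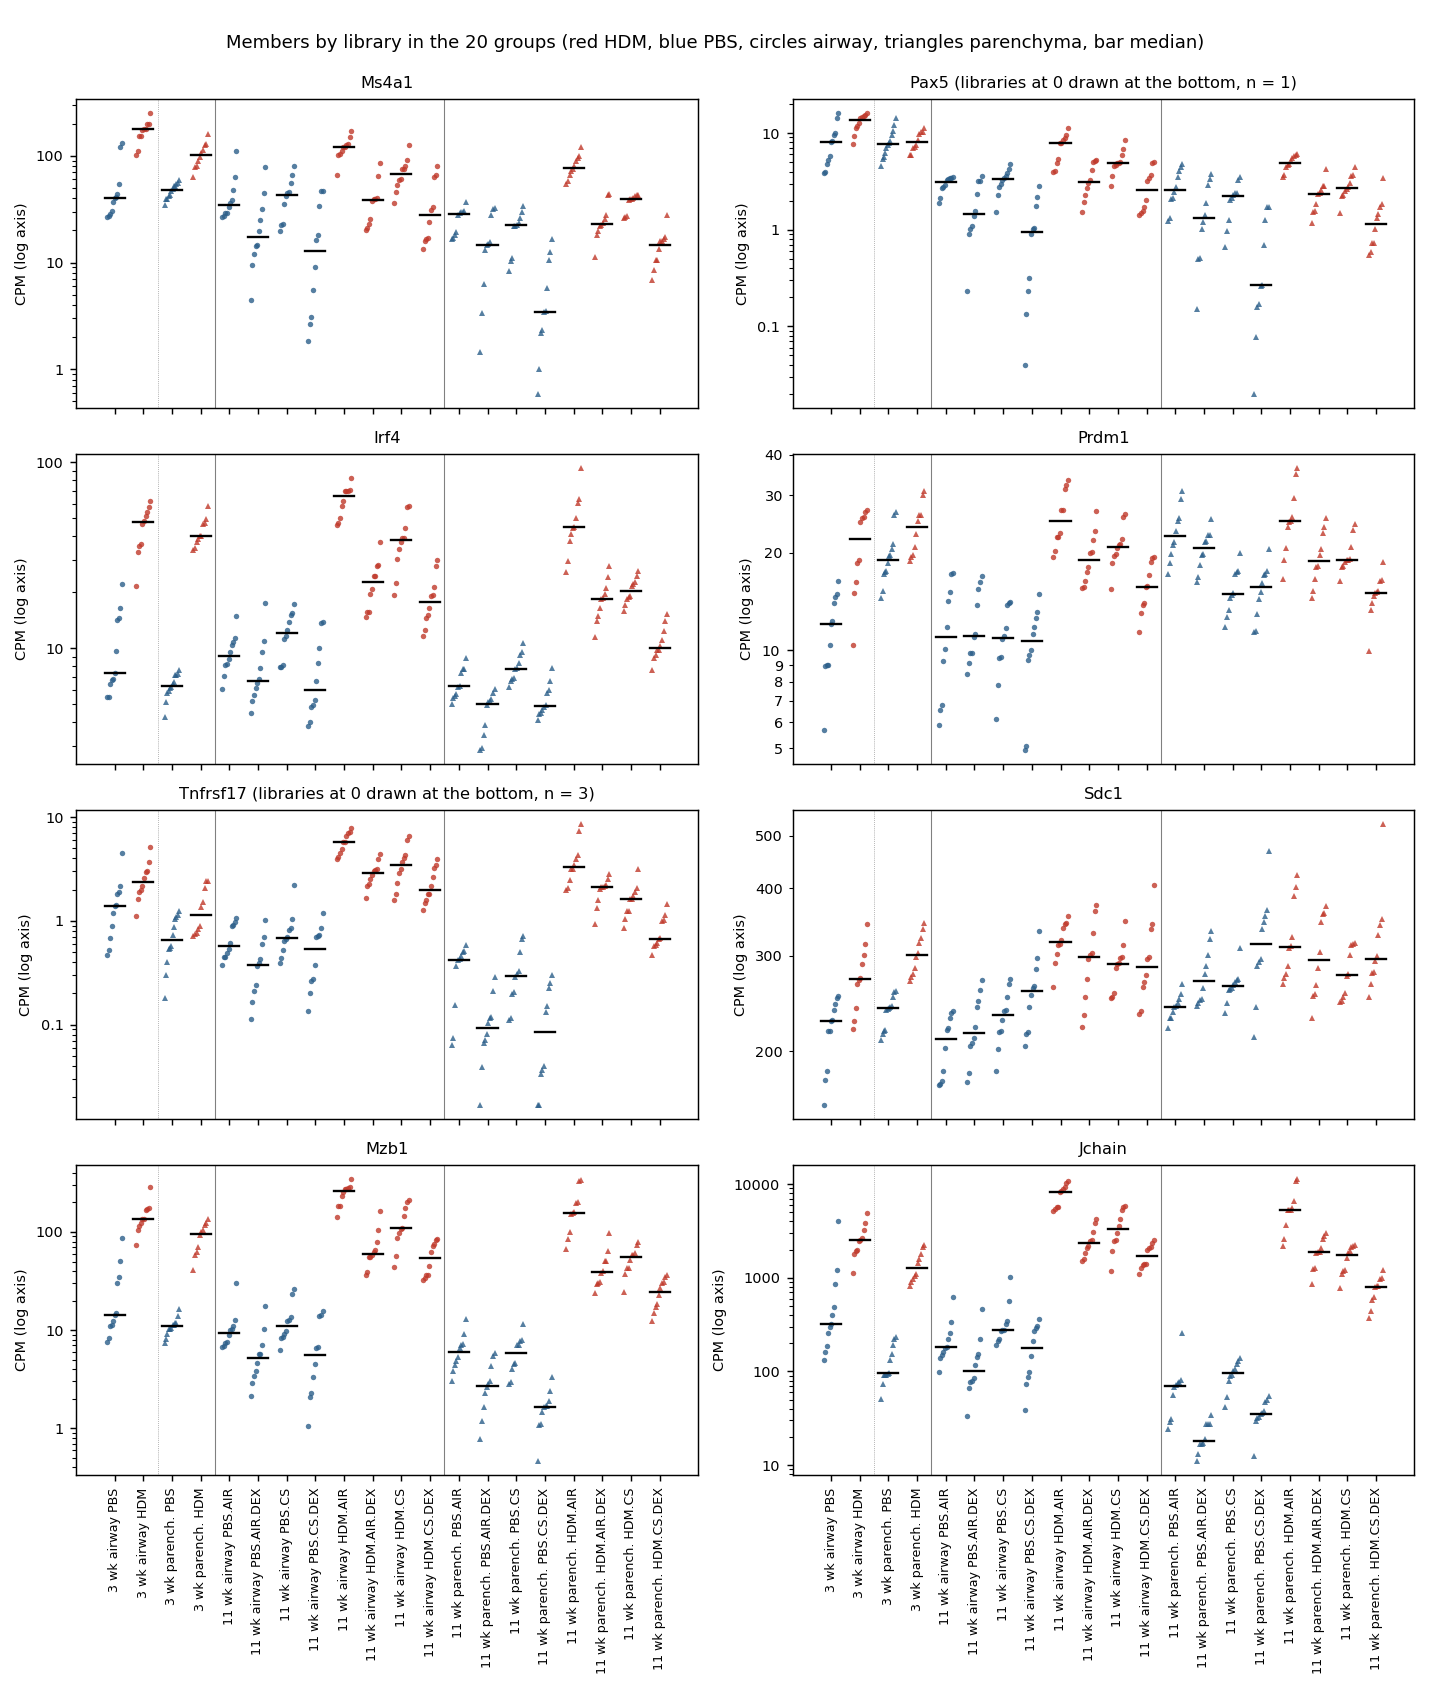
Level of each of the 8 genes in every library (y, CPM on a log axis) in the 20 groups (x), with HDM in red, PBS in blue, airway as circles, parenchyma as triangles and the median as a bar. Jchain, Mzb1, Irf4 and Tnfrsf17 stand highest in the 11 week HDM.AIR groups, Ms4a1 and Pax5 in 3 week HDM airway, and Sdc1 and Prdm1 vary little.

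The first comparison asked how 3 weeks of HDM changed the genes. In airway all 8 rose, against 34.1% of the 17381 genes tested, and 4 of them rose by at least 1 on the log2 scale (Ms4a1, Irf4, Mzb1 and Jchain), against 12.1% of all genes. In parenchyma 6 rose, against 33.4% of all genes, and Ms4a1, Irf4, Mzb1 and Jchain were called higher, where 14.5% of all genes were. A gene is called at an adjusted p under 0.05 with a log2 fold change of at least 1 in size, and is said to rise or fall at an adjusted p under 0.05 alone. Whether groups overlapped is given as a description, here and later. The share of all genes whose groups did not overlap was not counted, so such a gap is not shown to be rare. The median log2 fold change of the 8 was 1.35 in airway and 0.97 in parenchyma, beside -0.07 and -0.13 over all genes. In bulk tissue, fewer cells of a type and less RNA per cell cannot be told apart, here and in all later comparisons.

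Among the B cell genes, Ms4a1 had lowest, median and highest levels of 26.95, 40.05 and 132.997 CPM in PBS airway and 102.4, 176.9 and 253 CPM in HDM airway. In parenchyma the values were 34.5, 47.9 and 58.9 CPM with PBS and 63.1, 101.4 and 160.6 CPM with HDM. HDM libraries were higher in both tissues, with no overlap in parenchyma, while 8 of 10 airway HDM libraries lay above every PBS library. The log2 fold change of Ms4a1 was 1.84 ± 0.22 SE, adjusted p = 6.7e-10 in airway and 1.05 ± 0.21 SE, adjusted p = 2.2e-05 in parenchyma. Pax5, which holds B cells to their fate, had 3.86, 8.11 and 16.2 CPM in PBS airway and 7.61, 13.5 and 16.2 CPM in HDM airway, and 4.53, 7.61 and 14.4 CPM and 5.86, 8.05 and 11.4 CPM in parenchyma. Its groups overlapped in both tissues, and it rose in airway (0.73 ± 0.20 SE, adjusted p = 0.00115) while its parenchyma value was 0.02 ± 0.22 SE, adjusted p = 0.934. The differences between the tissues in the HDM effect did not pass for Ms4a1 (0.79, adjusted p = 0.0627) or Pax5 (0.71, adjusted p = 0.0947), but did with library quality weights (1.12, adjusted p = 7.68e-04 for Ms4a1, and 1.04, adjusted p = 0.00342 for Pax5) and without the Glycam1 libraries (1.06, adjusted p = 0.00133, and 0.94, adjusted p = 0.0325).

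Of the factors that drive plasma cell fate, Irf4 rose in both tissues and Prdm1 in airway. Irf4 had 5.45, 7.34 and 22.2 CPM in PBS airway and 21.6, 47.6 and 61.8 CPM in HDM airway, and in parenchyma it went from 4.27 to 7.68 CPM with PBS to 33.98 to 58.5 CPM with HDM, without overlap. Its log2 fold change was 2.13 ± 0.19 SE, adjusted p = 2.5e-13 in airway and 2.68 ± 0.22 SE, adjusted p = 1.9e-14 in parenchyma. Prdm1 had 5.68, 12.1 and 16.3 CPM in PBS airway and 10.4, 21.9 and 27.1 CPM in HDM airway, against 14.5, 18.99 and 26.7 CPM and 18.9, 23.9 and 31.02 CPM in parenchyma. The Prdm1 groups overlapped in both tissues, and parenchyma of PBS mice already stood near the HDM airway level. Prdm1 rose in airway (0.83 ± 0.16 SE, adjusted p = 9.0e-06) and had 0.23 ± 0.14 SE, adjusted p = 0.135 in parenchyma. The difference between the tissues was 0.59 ± 0.21 SE, adjusted p = 0.0468, where 1883 of 17381 genes passed in that direction. Both results depended on the processing. The parenchyma value passed by DESeq2 (0.33, adjusted p = 0.0342) and 6 other alternatives, and the tissue difference did not pass by DESeq2 (0.52, adjusted p = 0.0615) or without the Glycam1 libraries (0.39, adjusted p = 0.251). The HDM effect of Irf4 was smaller in airway by DESeq2 alone (-0.71, adjusted p = 0.0492), and by limma-voom the difference was -0.55, adjusted p = 0.186.

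Of the genes of the secreting cell, Mzb1 and Jchain had the largest fold changes of the 8 members in both tissues. Mzb1 had 7.64, 14.4 and 87.1 CPM in PBS airway and 74.5, 135.5 and 290.4 CPM in HDM airway, and in parenchyma 7.45, 10.98 and 16.4 CPM and 40.6, 96.03 and 135.6 CPM. Jchain had 132.7, 319 and 4066 CPM in PBS airway and 1135, 2515 and 4877 CPM in HDM airway, and in parenchyma 51.1, 95.6 and 234 CPM and 823, 1279 and 2226 CPM. All HDM libraries exceeded every PBS library for both genes in parenchyma, while in airway the PBS library described above reached into the HDM range of both genes, and 1 other PBS library into that of Jchain. For Mzb1 the log2 fold change was 2.84 ± 0.29 SE, adjusted p = 1.8e-11 in airway and 2.92 ± 0.34 SE, adjusted p = 2.2e-10 in parenchyma, and for Jchain 2.51 ± 0.42 SE, adjusted p = 1.1e-06 and 3.47 ± 0.37 SE, adjusted p = 3.4e-11. The difference of Jchain between the tissues (-0.95, adjusted p = 0.246) passed by edgeR (-1.64, adjusted p = 0.0395) and DESeq2 (-1.72, adjusted p = 0.0221). Tnfrsf17 was near its lower limit of measurement, with medians of 1.38 and 2.37 CPM in airway and 0.655 and 1.13 CPM in parenchyma, and it rose in both (0.86, adjusted p = 0.0086 and 0.90, adjusted p = 0.0363). Sdc1 moved from a median of 228 to 272 CPM in airway and from 239.9 to 302 CPM in parenchyma. The rise of Sdc1 was small and near the same in both tissues (0.30, adjusted p = 2.9e-04 and 0.30, adjusted p = 1.8e-04), and in parenchyma its groups did not overlap.

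Other genes of these cells were higher as well. Of 19 other B cell genes, 18 rose in airway and 15 in parenchyma, with median log2 fold changes of 1.60 and 1.04. Spib, a factor of B cells and plasmacytoid dendritic cells, rose most (2.50 and 2.44). Cd79a, a signalling chain of the B cell receptor, rose by 1.69 and 1.24. Of 8 germinal centre genes, 7 rose in each tissue. Of 18 genes of the secretory machinery, 15 rose in each tissue, by a median of 0.95 in airway and 0.60 in parenchyma, led by the surface receptor Slamf7 (2.22 and 3.05). Xbp1, the factor of the secretory programme, rose by 0.73 and 0.51.

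Other cell types moved at the same time. All 10 T cell genes rose in both tissues (median 1.50 and 1.70, Cd4 2.36 and 3.03), the summed T cell level running from 70.2 to 265 CPM in PBS and 208 to 466 CPM in HDM airway. Of 7 macrophage genes 6 rose in each tissue, led by Cd68 (2.16 and 2.90), while Marco fell in airway by 1.04. Of 6 dendritic cell genes 2 rose in airway and 3 in parenchyma, led by Xcr1 (1.29 and 2.17), and of 5 plasmacytoid dendritic cell genes 3 and 4, led by Pacsin1 (2.29 and 2.35). Cox6a2 of the latter list went the other way in airway, from a mean of 25.7 CPM with PBS to 6.30 CPM with HDM. The epithelial list, 6 genes of cells that also make Sdc1, had 1 higher and 2 lower in airway and 1 higher and 1 lower in parenchyma, with median log2 fold changes of -0.18 and -0.07, with Cldn4 at 2.10 in parenchyma. Of 7 thymocyte genes, Rag1, Rag2, Ptcra and Arpp21 were too low to be tested, and Dntt rose (1.96 and 2.33). Dntt held at most 3 counts in 4 of 11 airway and 5 of 12 parenchyma PBS libraries, so its changes rest on few reads. In airway the mean of Themis was 5.32 CPM with PBS and 12.6 CPM with HDM, and that of Cd8b1 6.22 and 7.45 CPM. The part of these cells in the levels of Irf4, Prdm1 and Sdc1 was not tested.

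After the 11 week model the same comparison was made in mice that breathed air. In airway all 8 genes rose, against 31.3% of the 18250 genes tested, and 7 were called higher, all but Sdc1, against 10.6%. In parenchyma 7 rose, against 32.6%, and 5 were called (Ms4a1, Irf4, Tnfrsf17, Mzb1 and Jchain), against 13.0%. The median log2 fold change of the 8 was 2.18 in airway and 2.32 in parenchyma, beside 0.00 and 0.05 over all genes.

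Jchain had the largest change. It went from 99.2, 180.7 and 617 CPM in PBS.AIR airway to 5193, 8329.6 and 10762 CPM in HDM.AIR airway, and from 24.1, 69.7 and 259 CPM to 2179, 5302 and 11310.0 CPM in parenchyma. The groups were far apart in both tissues, and the log2 fold change was 5.23 ± 0.38 SE, adjusted p = 2.3e-26 in airway and 6.47 ± 0.36 SE, adjusted p = 1.9e-36 in parenchyma. Mzb1 followed, from 6.73, 9.46 and 30.2 CPM to 140.5, 263 and 345 CPM in airway (4.60 ± 0.30 SE, adjusted p = 1.2e-30) and from 3.04, 5.96 and 12.8 CPM to 67.3, 156.9 and 340.4 CPM in parenchyma (4.83 ± 0.35 SE, adjusted p = 6.3e-27), again without overlap. Tnfrsf17 went from 0.377, 0.575 and 1.07 CPM to 3.97, 5.75 and 7.91 CPM in airway (3.13 ± 0.28 SE, adjusted p = 5.2e-20) and from 0.0640, 0.424 and 0.580 CPM to 1.98, 3.32 and 8.64 CPM in parenchyma (3.65 ± 0.36 SE, adjusted p = 1.5e-17). The HDM and PBS groups of Tnfrsf17 did not overlap either, though 2 of the 10 PBS.AIR parenchyma libraries held at most 3 counts of it, so that the size of its change in parenchyma rests on few reads.

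Irf4 went from 6.01, 9.13 and 14.998 CPM to 45.9, 66.1 and 82.6 CPM in airway and from 5.01, 6.24 and 8.92 CPM to 25.8, 44.8 and 93.1 CPM in parenchyma, with no overlap (2.77 ± 0.18 SE, adjusted p = 3.8e-30, and 2.89 ± 0.21 SE, adjusted p = 6.4e-27). Prdm1 showed a contrast between the tissues. In airway it went from 5.88, 10.96 and 17.3 CPM to 19.4, 25.02 and 33.5 CPM without overlap (1.27 ± 0.14 SE, adjusted p = 3.5e-14), whereas in parenchyma the levels were 17.2, 22.4 and 30.96 CPM with PBS.AIR and 16.6, 24.99 and 36.4 CPM with HDM.AIR and overlapped (0.19 ± 0.13 SE, adjusted p = 0.203). The difference between the tissues in the HDM effect was 1.08 ± 0.19 SE, adjusted p = 6.6e-06, and Prdm1 was the only one of the 8 genes to pass this test at 11 weeks by limma-voom, where 12.7% of all genes passed in that direction, while 2 of the 8 passed by edgeR and by DESeq2. So the count of members that passed by limma-voom was near the share of all genes. As the library codes do not tie the tissues of a mouse together, tissue tests treat them as independent. The tissue markers also stood closer with HDM, as given above, and the part of tissue makeup in the Prdm1 contrast was not tested. Sdc1 rose by 0.67 in airway, where its ranges of 173.5 to 238 CPM and 263 to 355 CPM did not overlap, and by 0.48 in parenchyma.

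Ms4a1 went from 26.9, 34.4 and 111.9 CPM to 66.2, 120.8 and 170.9 CPM in airway (1.58 ± 0.32 SE, adjusted p = 6.9e-06) and from 16.5, 28.3 and 37.1 CPM to 53.9, 77.1 and 120.1 CPM in parenchyma (1.75 ± 0.33 SE, adjusted p = 1.9e-06). The parenchyma groups did not overlap, and in airway 1 PBS.AIR library reached into the HDM.AIR range. Pax5 rose from a median of 3.11 to 7.90 CPM in airway (1.25 ± 0.27 SE, adjusted p = 3.2e-05), without overlap, and from 2.60 to 4.92 CPM in parenchyma (0.95 ± 0.30 SE, adjusted p = 0.004), with overlap. Of 19 other B cell genes 18 rose in airway and 16 in parenchyma, led by Pou2af1, a co-activator of immunoglobulin genes (2.90 and 2.88), and Cd79a rose by 2.04 and 1.96. Of 18 secretory genes 17 and 16 rose, led by Derl3, which helps clear misfolded protein from the endoplasmic reticulum (4.40 and 4.25). Of 8 germinal centre genes 7 and 8 rose.

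Other cell types moved at 11 weeks too. All 10 T cell genes rose in both tissues (medians 1.70 and 1.90). Of 7 macrophage genes 6 rose in airway and 5 in parenchyma, led by Cd68 (2.88 and 2.63), and 0 fell. Of 6 dendritic cell genes 3 rose in each tissue while 2 fell in airway and 1 in parenchyma, and of 5 plasmacytoid dendritic cell genes 2 and 4 rose, led by Pacsin1 (1.46 and 1.53). Cox6a2 of the latter list again went the other way in airway, from a mean of 25.1 CPM with PBS.AIR to 6.63 CPM with HDM.AIR. The part of these cell types in the levels of Irf4 and Prdm1 was not tested.

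**Figure D2:**
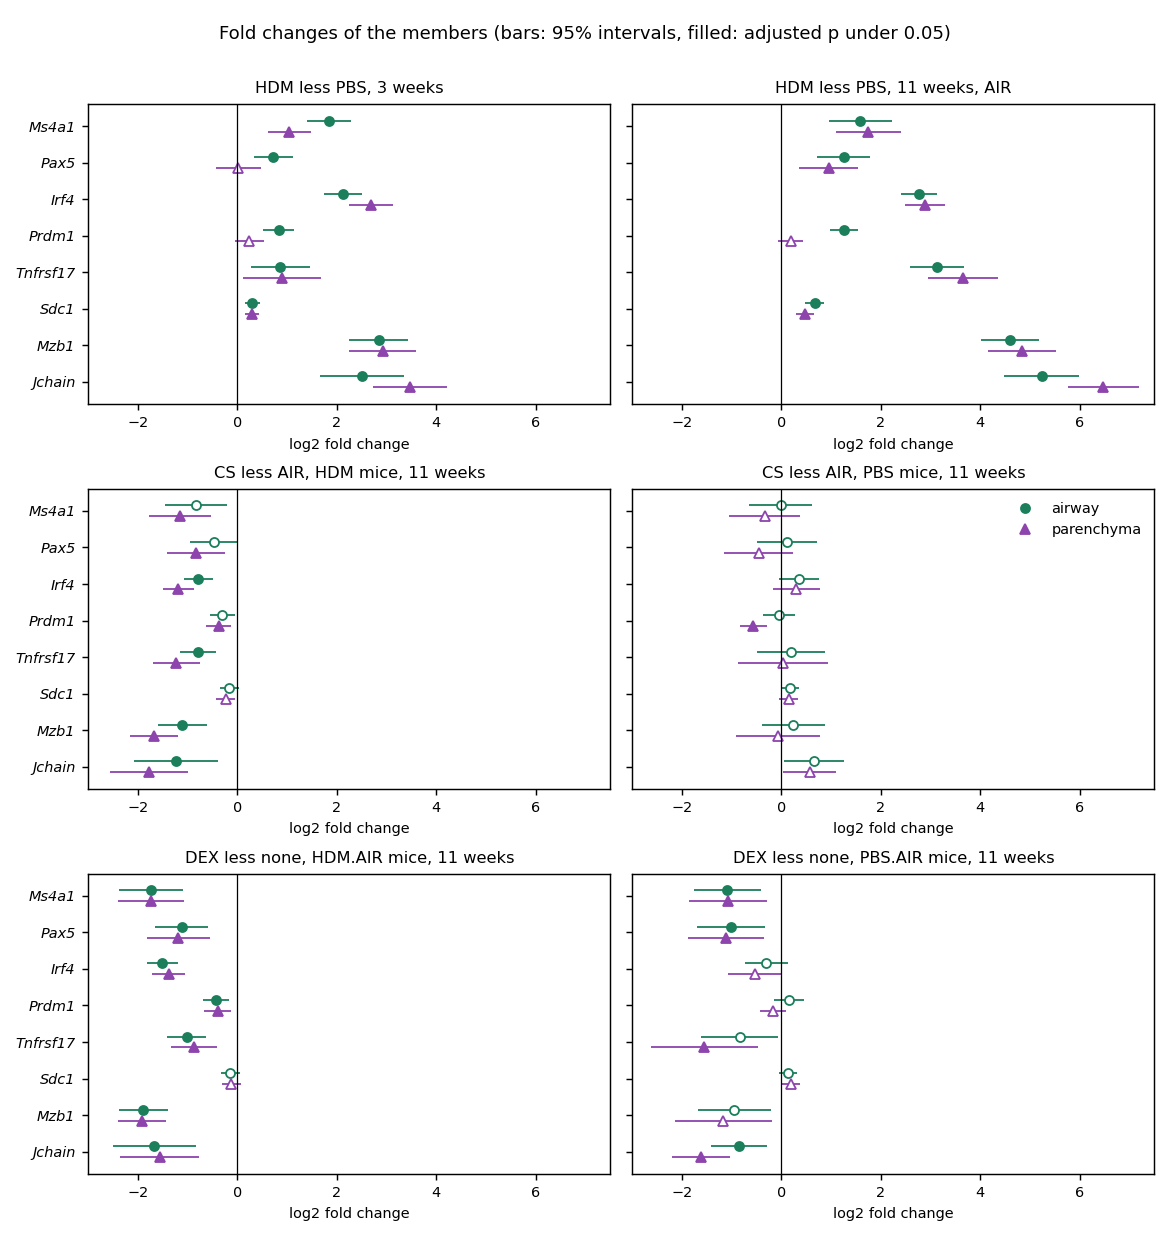
Log2 fold change (x) of each of the 8 genes (y) in 6 comparisons, with airway and parenchyma as separate points, bars as the 95% interval, filled points at an adjusted p under 0.05 and open points above it. HDM at 11 weeks moved Jchain by 5.23 in airway and 6.47 in parenchyma, and in HDM mice most points for smoke and all points for DEX that passed lie below 0.

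The 3 and 11 week models were then compared. The HDM effect was larger at 11 weeks than at 3 weeks for Tnfrsf17, Mzb1 and Jchain in both tissues, 3 of 8 members, against 14.5% of all genes in airway and 21.5% in parenchyma, where 3.04% of the 18528 genes of the fit of all libraries were called larger in airway and 6.14% in parenchyma. The difference was 2.66 ± 0.55 SE, adjusted p = 5.5e-05 for Jchain, 1.71 ± 0.41 SE, adjusted p = 5.3e-04 for Mzb1 and 2.21 ± 0.39 SE, adjusted p = 3.4e-06 for Tnfrsf17 in airway. In parenchyma it was 2.88 ± 0.50 SE, adjusted p = 5.5e-07, 1.78 ± 0.47 SE, adjusted p = 0.00101 and 2.63 ± 0.51 SE, adjusted p = 6.9e-06. For Ms4a1 the difference was -0.32 in airway (95% interval -1.16 to 0.53) and 0.57 in parenchyma (-0.27 to 1.42), and it did not pass. For Pax5 it was 0.46 in airway (-0.21 to 1.13) and 0.81, adjusted p = 0.073 in parenchyma (0.06 to 1.55), where it passed with the stricter filter (0.83, adjusted p = 0.0487), with library quality weights (0.98, adjusted p = 0.00899) and without the Glycam1 libraries (0.91, adjusted p = 0.0238). Whether the B cell and the plasma cell genes differed in this respect was not tested.

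Both ends of that contrast moved. Between the HDM groups themselves, Jchain was higher at 11 weeks by 1.62 in airway, without overlap, and by 1.97 in parenchyma, while Pax5 fell by 0.88 and 0.76. In HDM airway 5 members were higher at 11 weeks and in HDM parenchyma 3, where 2857 and 3610 of 18528 genes were. Pax5 was the 1 member lower in each, where 2735 and 4184 genes were lower. Between the PBS groups, Pax5 was lower at 11 weeks (-1.34, adjusted p = 8.0e-06 in airway, -1.57, adjusted p = 6.3e-07 in parenchyma), and so were Tnfrsf17, Mzb1 and Jchain in both tissues. Ms4a1 was lower at 11 weeks in PBS parenchyma (-0.93, adjusted p = 0.0062) and had -0.18, adjusted p = 0.645 in airway. That made 4 members lower in PBS airway and 5 in PBS parenchyma, where 4273 and 5551 of 18528 genes were lower. The PBS difference of Jchain in parenchyma (-0.91, adjusted p = 0.00273) did not pass by edgeR (-0.72, adjusted p = 0.0549) or DESeq2 (-0.71, adjusted p = 0.0901), and that of Mzb1 (-0.89, adjusted p = 0.0483) did not pass with the stricter filter (-0.90, adjusted p = 0.0874). In airway those of Tnfrsf17 and Mzb1 did not pass without the Glycam1 libraries (-0.95, adjusted p = 0.0904, and -0.99, adjusted p = 0.0541). The 3 week and 11 week mice were exposed on different schedules and not side by side by their labels, so duration and handling cannot be told apart. The ratio of Jchain to Ms4a1 within a library does not depend on the scaling between libraries. Its median was 8.11 in PBS and 14.6 in HDM airway and 2.50 and 12.5 in parenchyma at 3 weeks, and at 11 weeks it was 5.15 in PBS.AIR and 66.2 in HDM.AIR airway and 2.45 and 67.1 in parenchyma. It stood between 45.4 and 76.4 in all 8 HDM groups of the 11 week model, smoke and DEX included.

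**Figure D3:**
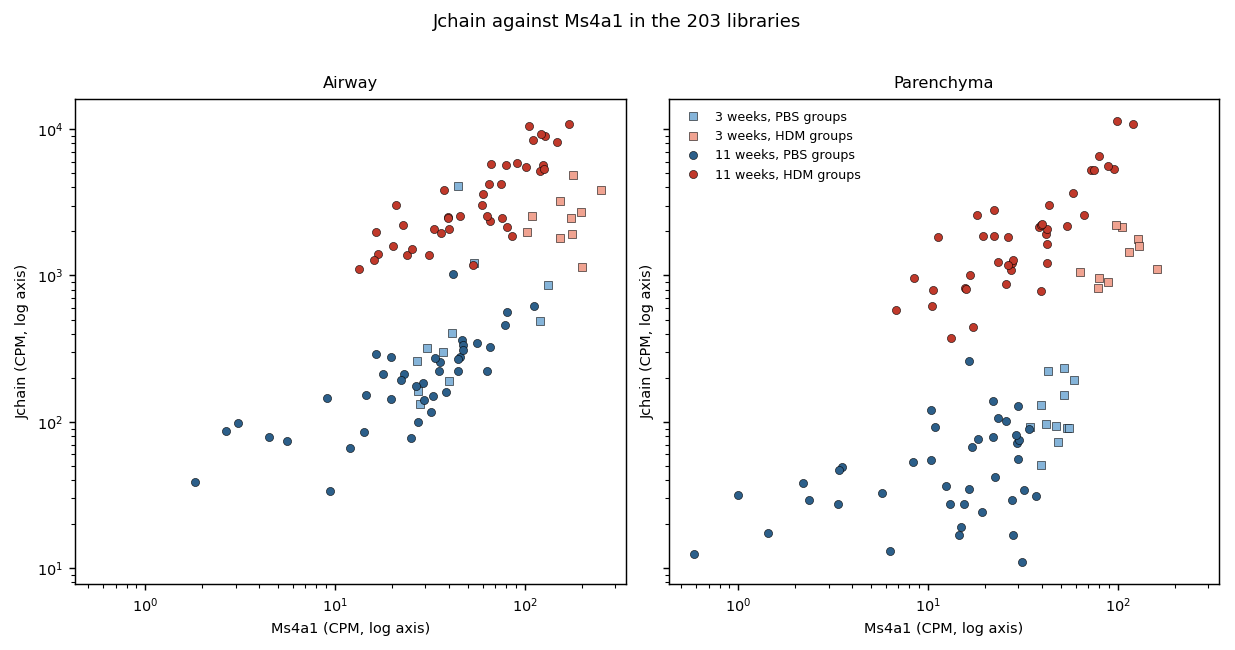
Jchain (y, CPM, log axis) against Ms4a1 (x, CPM, log axis) in each library, airway on the left and parenchyma on the right, coloured by week and exposure. The ratio of Jchain to Ms4a1 ran from 20.0 to 160.4 in the 11 week HDM libraries and from 0.354 to 32.5 in the 11 week PBS libraries, which thus overlapped at the edges, and from 1.302 to 91.8 in the 3 week libraries.

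HDM effects were also present under smoke and under DEX. Over the 10 comparisons of HDM with PBS, 2 at 3 weeks and 8 at 11 weeks, Irf4, Tnfrsf17, Mzb1 and Jchain rose in 10, Ms4a1 in 8, Pax5 and Sdc1 in 6 and Prdm1 in 5 (by edgeR Ms4a1 in 6 and the others in as many). How many of all genes rose in as many was not counted. In the single comparisons at 11 weeks, from 1373 (parenchyma under CS) to 5951 (parenchyma under AIR) of 18250 genes rose. At 11 weeks all 40 HDM libraries of a tissue, whatever else the mice received, held more Jchain than all 40 PBS libraries of that tissue. The same held for Mzb1 in airway, and in parenchyma 39 of 40 HDM libraries were above every PBS library. In mice given DEX and breathing air, the log2 fold change of Jchain with HDM was 4.41 ± 0.34 SE, adjusted p = 5.5e-24 in airway and 6.53 ± 0.34 SE, adjusted p = 5.9e-38 in parenchyma. In smoke-exposed mice it was 3.34 ± 0.36 SE, adjusted p = 5.7e-14 and 4.12 ± 0.32 SE, adjusted p = 1.2e-21, and with both smoke and DEX 3.47 ± 0.34 SE, adjusted p = 1.2e-16 and 4.41 ± 0.31 SE, adjusted p = 1.7e-25. In all 4 settings and both tissues every HDM library lay above every PBS library of its setting for Jchain and Mzb1. The share of all genes of which this was true was not counted. The counts of members called higher were 5, 5 and 6 in airway under AIR.DEX, CS and CS.DEX, against 7.95%, 3.90% and 4.59% of all genes. In parenchyma they were 5, 4 and 6, against 8.54%, 2.71% and 3.35%. Ms4a1 rose with HDM under AIR.DEX (0.93 and 1.09) and CS.DEX (1.44 and 1.76), and under CS it had 0.77, adjusted p = 0.0505 in airway and 0.93, adjusted p = 0.0728 in parenchyma. The Ms4a1 rise under AIR.DEX did not pass by edgeR (0.63, adjusted p = 0.147 in airway, and 0.71, adjusted p = 0.114 in parenchyma), while that under CS passed without the Glycam1 libraries (1.07, adjusted p = 0.0151 in airway, and 0.92, adjusted p = 0.014 in parenchyma).

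Cigarette smoke was compared with air within each exposure. In PBS mice 0 of the 8 genes passed in airway by limma-voom, edgeR or DESeq2 and 1 had an unadjusted p under 0.05. Of the 18250 genes tested there, 1398 rose and 1101 fell, with 1.73% called higher and 1.06% called lower. In PBS parenchyma Prdm1 alone passed, falling from 17.2, 22.4 and 30.96 CPM to 11.8, 14.9 and 19.9 CPM (-0.57 ± 0.14 SE, adjusted p = 5.1e-04), with 7 of 10 smoke libraries below all air libraries. Of the 18250 genes tested in that comparison, 3319 fell and 3237 rose, each a larger share than 1 of the 8 members. Jchain had a median of 278 CPM with smoke and 180.7 CPM with air in PBS airway (0.65, adjusted p = 0.146), and 96.9 and 69.7 CPM in parenchyma (0.57, adjusted p = 0.0867). Without the 7 libraries that stood apart, an alternative chosen after the data were seen, the Jchain values were 0.82 (adjusted p = 0.0352) in airway and 0.84 (adjusted p = 0.00843) in parenchyma. The 7 include a PBS.AIR parenchyma library with 259 CPM of Jchain against at most 81.7 CPM in the other 9. They also include a PBS.AIR airway library with 617 CPM against at most 333 CPM in the other 9. Leaving out the highest air libraries tilts both values toward a rise, so these p-values do not show one.

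In HDM mice 4 of the 8 genes fell with smoke in airway and 7 of 8 in parenchyma, against 10.1% and 14.1% of all genes. In airway the 4 were those that rose in all 10 HDM comparisons (Irf4, Tnfrsf17, Mzb1 and Jchain), 2 of them called lower against 1.97% of all genes, and in parenchyma 7 fell, all but Sdc1, with 5 called lower against 3.46%. Tnfrsf17 in airway did not pass by edgeR (-0.68, adjusted p = 0.089), and neither did Pax5 in parenchyma (-0.81, adjusted p = 0.0783). Jchain had 1178, 3309 and 5899 CPM in HDM.CS airway and 786, 1738 and 2256 CPM in HDM.CS parenchyma, below the HDM.AIR levels given above for 7 and 8 of 10 libraries. The change was -1.24 ± 0.43 SE, adjusted p = 0.0346 in airway and -1.78 ± 0.40 SE, adjusted p = 3.0e-04 in parenchyma, and in airway it did not pass with a filter of CPM of at least 10 (-1.23, adjusted p = 0.0582) or with all libraries in one fit (-1.22, adjusted p = 0.0506). Mzb1 had 43.6, 108.7 and 209.5 CPM and 24.6, 55.04 and 79.8 CPM with smoke (-1.11 ± 0.25 SE, adjusted p = 5.0e-04, and -1.68 ± 0.24 SE, adjusted p = 1.9e-08). Irf4 had 19.4, 38.2 and 58.01 CPM and 15.8, 20.4 and 26.1 CPM (-0.79 ± 0.15 SE, adjusted p = 2.2e-05, and -1.19 ± 0.16 SE, adjusted p = 1.3e-09). Ms4a1 had 26.4, 39.4 and 42.6 CPM in HDM.CS parenchyma, all 10 libraries below all HDM.AIR libraries (-1.15 ± 0.32 SE, adjusted p = 0.00348), and its airway value was -0.83 ± 0.32 SE, adjusted p = 0.0586, which passed without the Glycam1 libraries (-0.78, adjusted p = 0.0467).

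The smoke effect differed between HDM and PBS mice for Irf4, Mzb1 and Jchain in airway and for Irf4, Tnfrsf17, Sdc1, Mzb1 and Jchain in parenchyma. Of all genes, 11.4% passed this test in that direction in airway and 18.7% in parenchyma. The difference for Jchain was -1.89 ± 0.53 SE, adjusted p = 0.00541 in airway and -2.35 ± 0.48 SE, adjusted p = 3.1e-05 in parenchyma, and for Irf4 -1.14 ± 0.25 SE, adjusted p = 3.7e-04 and -1.49 ± 0.29 SE, adjusted p = 9.6e-06. Of 8 germinal centre genes 6 fell with smoke in HDM mice in each tissue, with Rgs13, a regulator of G protein signalling in germinal centre B cells, at -2.07 and -2.87, while 11 and 15 of 19 B cell genes and 12 and 14 of 18 secretory genes fell. T cell genes fell too, 5 of 10 in airway and 9 of 10 in parenchyma, as did 3 of 6 dendritic cell genes and 4 of 5 plasmacytoid dendritic cell genes in each tissue. Of 7 macrophage genes 1 rose and 0 fell in airway, and 2 rose and 1 fell in parenchyma, with Marco, a scavenger receptor, higher by 1.04 and 1.40. In mice given DEX, 0 members passed for smoke in HDM airway by limma-voom, edgeR or DESeq2 (1 at an unadjusted p under 0.05) and 0 in PBS airway (3 at an unadjusted p under 0.05). In HDM parenchyma with DEX 4 fell, against 5.58% of all genes, with Tnfrsf17 (-1.38, adjusted p = 0.00108) and Jchain (-1.34, adjusted p = 0.00721) called lower against 1.20% of all genes. In PBS parenchyma with DEX, 3 members fell with smoke, where 1629 of 18250 genes fell. Of the 3, Ms4a1 (-1.56, adjusted p = 0.0346) and Pax5 (-1.82, adjusted p = 0.0108) were called lower, against 0.822% of genes. Jchain rose (0.79, adjusted p = 0.0483) without being called, where 1701 of 18250 genes rose and 1.97% were called higher. The Jchain value did not pass by edgeR (0.79, adjusted p = 0.0627), and that of Ms4a1 did not pass without the 7 libraries that stood apart (-1.25, adjusted p = 0.0806).

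Dexamethasone in week 11 was compared with no drug within each exposure. Over the 8 comparisons Ms4a1 and Pax5 fell in 8, Jchain in 7, Mzb1 in 6, Irf4 and Tnfrsf17 in 5, Prdm1 in 4 and Sdc1 in 0. How many of all genes fell in as many was not counted. In the single comparisons, from 985 (HDM.CS parenchyma) to 2960 (HDM.AIR parenchyma) of 18250 genes fell. By edgeR, Ms4a1 and Pax5 fell in 5, Irf4 in 7 and Jchain in 7, and Sdc1 rose in 1. In HDM.AIR mice 7 of 8 genes fell in each tissue, all but Sdc1, against 16.0% of all genes in airway and 16.2% in parenchyma, with 6 called lower in airway and 5 in parenchyma, where 5.07% and 5.40% of all genes were. Ms4a1 had 20.2, 38.5 and 85.5 CPM with DEX in airway (-1.74 ± 0.32 SE, adjusted p = 5.5e-06) and 11.4, 22.9 and 43.7 CPM in parenchyma (-1.74 ± 0.34 SE, adjusted p = 1.6e-05). Irf4 had 14.7, 22.7 and 37.5 CPM in airway (-1.51 ± 0.15 SE, adjusted p = 3.1e-15) and 11.6, 18.5 and 27.7 CPM in parenchyma (-1.38 ± 0.16 SE, adjusted p = 5.9e-12). The DEX and no-DEX libraries did not overlap for Ms4a1 in parenchyma and for Irf4 in airway, and in the other tissue 9 of 10 DEX libraries lay below all others. Jchain had 1527, 2341 and 4221 CPM in airway, without overlap (-1.67 ± 0.42 SE, adjusted p = 9.8e-04), and 869, 1869 and 3023 CPM in parenchyma (-1.56 ± 0.40 SE, adjusted p = 0.00123). Mzb1 fell by 1.89 in airway and 1.92 in parenchyma, and Prdm1 by 0.43 and 0.40, both groups of Prdm1 overlapping.

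In HDM.CS mice DEX lowered 5 genes in airway and 7 in parenchyma, against 7.05% and 5.40% of all genes, and 4 and 5 of them were called lower, against 1.93% and 1.92%. Jchain had -0.95, adjusted p = 0.127 in airway, which passed by edgeR (-1.04, adjusted p = 0.0203), and -1.12, adjusted p = 0.0313 in parenchyma. Ms4a1 (-1.20, adjusted p = 0.00594) and Pax5 (-1.01, adjusted p = 0.0115) fell in airway but did not pass by edgeR (-0.98, adjusted p = 0.0841, and -0.90, adjusted p = 0.0968). By limma-voom, edgeR and DESeq2, 0 members passed the test of whether the DEX effect differed between HDM.CS and HDM.AIR mice, with 2 at an unadjusted p under 0.05 in each tissue and 95% intervals of -0.42 to 1.87 for Jchain and -0.37 to 1.43 for Ms4a1 in airway, which reach further toward a smaller fall under smoke than toward a larger one. In PBS mice DEX lowered Ms4a1 and Pax5 in both tissues by limma-voom, under air (-1.09 and -1.08 for Ms4a1, -1.01 and -1.12 for Pax5) and under smoke (-1.87 and -2.30, and -2.30 and -2.49). Jchain fell in these 4 settings as well, by 0.85 and 1.62 under air and 1.08 and 1.40 under smoke. Under air these falls depended on the tool, and by edgeR 0 members passed in PBS.AIR airway, Ms4a1 being at -0.78 (adjusted p = 0.15), Pax5 at -0.67 (adjusted p = 0.214) and Jchain at -0.69 (adjusted p = 0.127). In PBS.AIR parenchyma Ms4a1 (-0.66, adjusted p = 0.203) and Pax5 (-0.77, adjusted p = 0.105) did not pass by edgeR, whereas Irf4 (-0.53, adjusted p = 0.0377) and Mzb1 (-1.09, adjusted p = 0.012) did. In PBS.AIR mice 2 members were called lower in airway and 4 in parenchyma, against 1.85% and 2.14% of all genes, and in PBS.CS mice 4 and 5, against 2.29% and 2.39%. In PBS parenchyma with DEX, Tnfrsf17 held at most 3 counts in 7 of 10 libraries under air and 5 of 10 under smoke, so its changes there (-1.56 and -1.80) rest on few reads. The HDM by DEX interaction passed only for Irf4 in airway (-1.20 ± 0.27 SE, adjusted p = 0.00147), where 3.52% of all genes passed in that direction, so a larger effect of DEX in HDM than in PBS mice was not shown for the other 7 genes in airway. In parenchyma 0 members passed by limma-voom and 2 had an unadjusted p under 0.05, while Irf4 passed by edgeR (-0.89, adjusted p = 0.0155) and DESeq2 (-0.89, adjusted p = 0.0122).

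The lists moved with the members under DEX. In HDM.AIR mice 19 of 19 B cell genes fell in airway and 17 in parenchyma, led by Cr2, the complement receptor of B cells (-2.42 and -2.38). Of 8 germinal centre genes 6 fell in each tissue, Rgs13 by 4.42 and 4.67. Of 18 secretory genes 15 and 14 fell, with medians of -0.68 and -0.60, and Xbp1 by 0.63 and 0.43. Of 10 T cell genes 9 and 10 fell, of 6 dendritic cell genes 5 and 5, and of 5 plasmacytoid dendritic cell genes 4 and 4. No macrophage gene was called in either direction, and 1 of 7 was lower in each tissue. The median log2 fold change over all genes was 0.00 and 0.01.

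Airway and parenchyma differed in the absence of HDM. In PBS mice at 3 weeks Irf4, Tnfrsf17, Mzb1 and Jchain were higher in airway, against 24.3% of all genes, Tnfrsf17 (1.01, adjusted p = 0.0211) and Jchain (1.89 ± 0.33 SE, adjusted p = 7.7e-06) by at least 1, where 10.0% of all genes were called higher. In PBS.AIR mice at 11 weeks Irf4, Tnfrsf17 and Jchain were higher in airway, against 26.3%, Tnfrsf17 (1.15, adjusted p = 0.0124) and Jchain (1.79 ± 0.28 SE, adjusted p = 1.8e-08) by at least 1, where 13.4% were called higher, and Sdc1 was slightly lower (-0.21, adjusted p = 0.0436). Prdm1 went the other way at both times (-0.77 ± 0.16 SE, adjusted p = 5.7e-05, and -1.05 ± 0.15 SE, adjusted p = 2.7e-10), 9 of 10 airway libraries at 11 weeks lying below all parenchyma libraries, where 2.71% of all genes were called lower. At 3 weeks 1 member was lower in airway, where 5514 of 17381 genes were. At 11 weeks 2 were, where 5496 of 18250 genes were, so the members were lower no more often than genes in general. With HDM 4 members were higher in airway at 3 weeks and 2 at 11 weeks under AIR, against 19.5% and 7.95% of all genes, and none was called, Tnfrsf17 being higher in airway at both times (0.98, adjusted p = 0.0138, and 0.63, adjusted p = 0.0155). At 11 weeks 0 members passed by edgeR or DESeq2, where Tnfrsf17 had 0.51 (adjusted p = 0.253 by edgeR). The lymph node list, Glycam1, Chst4, Madcam1 and Ccl21a, was higher in airway for 2 of 4 genes at 3 weeks and 3 of 4 at 11 weeks. Without the 31 libraries rich in Glycam1, an alternative chosen after the data were seen, Jchain still passed at both times. Irf4 (0.41, adjusted p = 0.205), Tnfrsf17 (0.89, adjusted p = 0.0829) and Mzb1 (0.52, adjusted p = 0.239) did not pass at 3 weeks, nor did Irf4 (0.29, adjusted p = 0.397), Tnfrsf17 (1.03, adjusted p = 0.09) and Sdc1 (-0.08, adjusted p = 0.636) at 11 weeks, and Ms4a1 at 3 weeks was lower in airway (-0.40, adjusted p = 0.0227). Without the 7 libraries that stood apart, the 3 week values of Irf4 (0.48, adjusted p = 0.0737), Tnfrsf17 (0.79, adjusted p = 0.0566) and Mzb1 (0.60, adjusted p = 0.0883) did not pass either.

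Glycam1 was unevenly spread within airway groups and went with 6 of the 8 members. In PBS airway at 3 weeks the 3 libraries at or above 25 CPM had a median Ms4a1 of 121.1 CPM and the other 8 of 33.7 CPM, with medians of Jchain of 859 and 279.9 CPM. In PBS.CS.DEX airway at 11 weeks the medians of Ms4a1 were 46.9 CPM in 3 libraries and 5.58 CPM in 7, without overlap, and those of Jchain 309.2 and 98.98 CPM. In HDM.AIR airway the medians of Ms4a1 were 148.5 CPM in 3 and 110.8 CPM in 7. There Jchain went the other way, at 8198 and 8461 CPM, as it did in HDM.AIR.DEX airway, at 1961 CPM in 2 libraries and 2506 CPM in 8. After the mean of each group was taken out, the correlation with Glycam1 over all libraries was 0.58 for Ms4a1, 0.57 for Irf4, 0.50 for Mzb1, 0.44 for Jchain, 0.42 for Pax5, 0.28 for Tnfrsf17, -0.32 for Prdm1 and -0.34 for Sdc1, as a description. The part of lymph node tissue in the airway levels was not tested beyond leaving those libraries out.

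**Figure D4:**
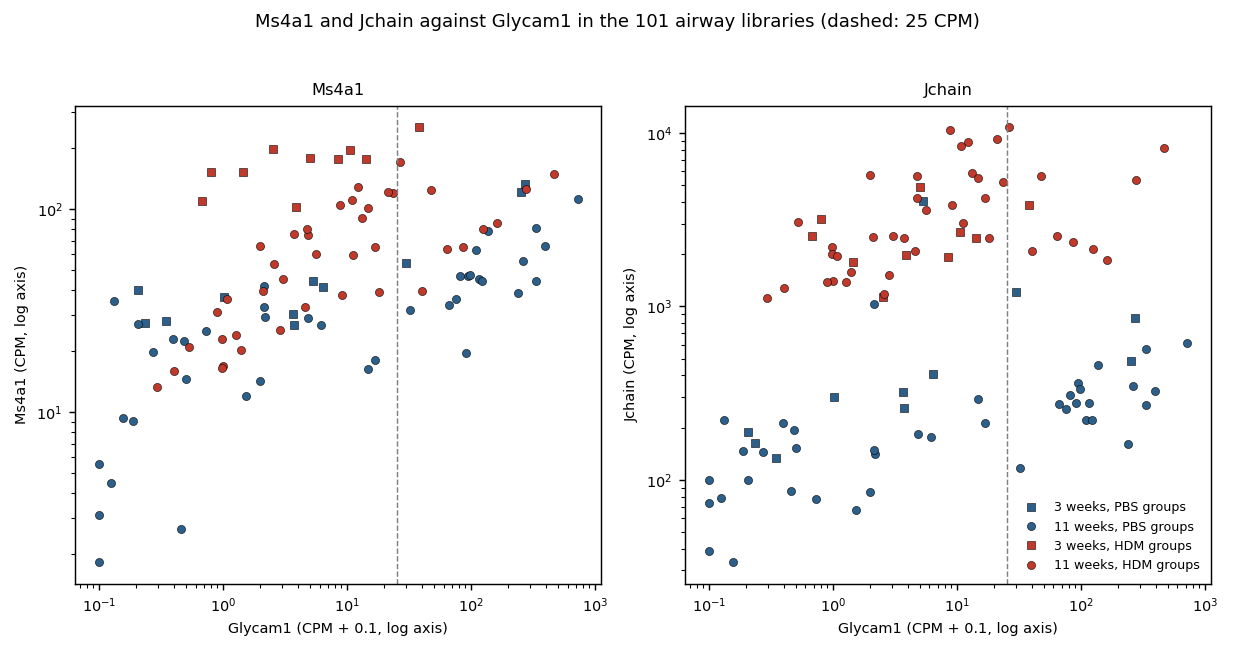
Ms4a1 (left) and Jchain (right) on the y axis (CPM, log axis) against Glycam1 (x, CPM plus 0.1, log axis) in each airway library, squares for 3 weeks and circles for 11 weeks, blue for PBS and red for HDM groups, with the limit of 25 CPM drawn as a dashed line. The libraries with under 10 CPM of Ms4a1 all lie left of the line, which 30 libraries reach or pass, and the 11 week HDM libraries lie above the 11 week PBS libraries for Jchain on both sides of it.

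Immunoglobulin constant region genes, the products that plasma cells secrete, moved in the same direction as Jchain and Mzb1. Ighe was too low to be tested at 3 weeks, and of the other 8 genes 8 rose in airway and 7 in parenchyma, led by Ighg3 (5.16 and 5.35). At 11 weeks all 9 rose in both tissues, with medians of 5.14 and 6.43. Ighg1, the IgG1 heavy chain, led: it had 1.25, 13.3 and 46.9 CPM in PBS.AIR airway and 9415, 17269.8 and 20204 CPM in HDM.AIR airway (10.46 ± 0.66 SE, adjusted p = 1.66e-31), and in parenchyma 0.552 to 453 CPM and 3937 to 19867 CPM (9.96 ± 0.66 SE, adjusted p = 1.1e-29). At 3 weeks its change was 2.65 in airway, which did not pass by edgeR (1.04, adjusted p = 0.105), and 3.29 in parenchyma, and the HDM effect was larger at 11 weeks by 7.75 ± 0.89 SE, adjusted p = 2.09e-12 in airway and 6.54 ± 0.86 SE, adjusted p = 7.4e-11 in parenchyma. The PBS groups differed too, and their median Ighg1 was 111.5 CPM in airway at 3 weeks and 13.3 CPM at 11 weeks. Igha, the heavy chain that Jchain joins, rose by 2.94 and 3.43 at 3 weeks and 5.14 and 5.34 at 11 weeks, and Ighm by 2.49 and 3.06, then 2.95 and 4.30. The larger effect at 11 weeks held for Igha (2.14, adjusted p = 0.000153 in airway, 1.78, adjusted p = 0.000415 in parenchyma), and for Ighm in parenchyma (1.12, adjusted p = 0.0497), though not by edgeR (1.02, adjusted p = 0.0605), while Ighm had 0.39, adjusted p = 0.609 in airway.

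Smoke lowered 5 of 9 of these genes in HDM airway and 7 in HDM parenchyma, Ighg3 most (-2.69 and -2.88), and DEX lowered 8 and 9 in HDM.AIR mice, Ighg2c most (-3.09 and -2.60). In PBS mice smoke went the other way for Ighg1, higher by 2.70 in airway and 1.78 in parenchyma. The parenchyma value turned to -0.25 by edgeR (adjusted p = 0.764), where 1 PBS.AIR library held 453 CPM of Ighg1 and the other 9 at most 33.9 CPM. The IgG genes are close in sequence and their reads may have been split among them, and Balb/C mice carry Ighg2a where the reference has Ighg2c, so single IgG subclasses are less certain than the list. Igkc, the kappa light chain, which stands apart from these copies, rose by 2.60 and 3.41 at 3 weeks and 5.67 and 6.43 at 11 weeks.

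**Figure D5:**
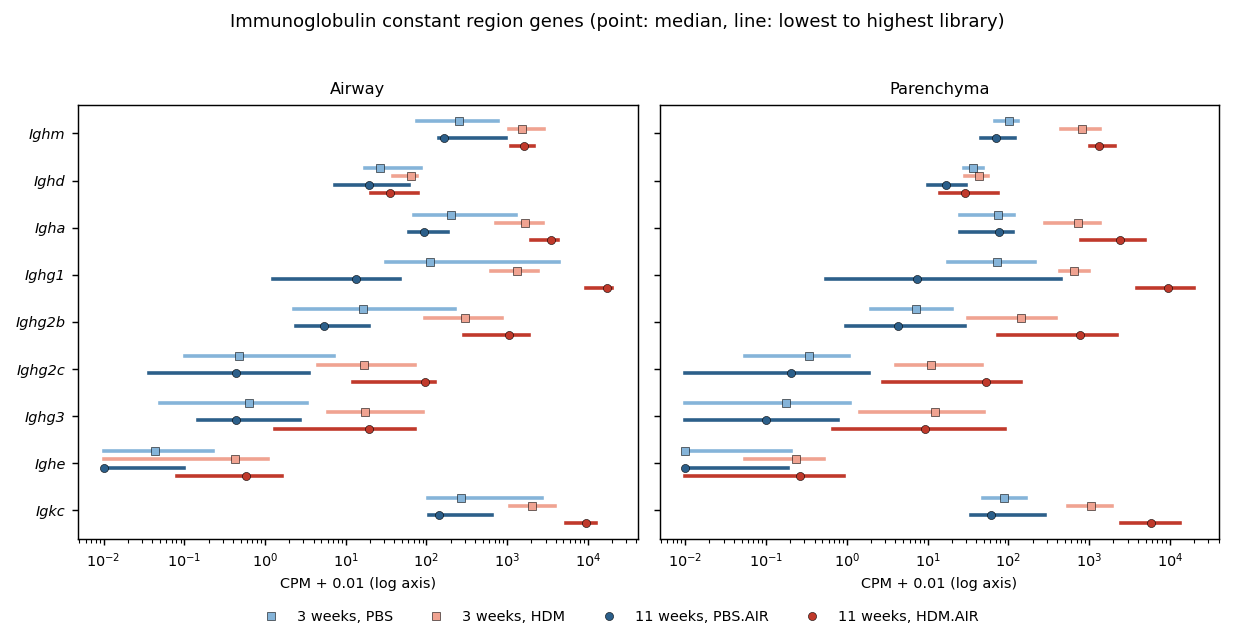
Levels of 9 immunoglobulin constant region genes (y) in CPM plus 0.01 (x, log axis) for PBS and HDM at 3 weeks and PBS.AIR and HDM.AIR at 11 weeks, airway on the left and parenchyma on the right, points at the median and lines from the lowest to the highest library. Ighg1 has the widest gap, from medians of 13.3 to 17269.8 CPM in 11 week airway.

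Signals to B cells and plasma cells moved as well. Of the 15 signal genes tested at 3 weeks, 14 rose in each tissue, led by Il21, a cytokine of helper T cells that drives plasma cell formation (6.18 and 6.94). Of 16 tested at 11 weeks, 14 rose in airway and 13 in parenchyma, led by Il21 (5.15) and by Ccl19, a lymphoid tissue chemokine (5.62). Cxcl13, which draws B cells into follicles, rose by 3.24 and 4.28 at 3 weeks and by 2.33 and 3.86 at 11 weeks. Among the ligands and receptors of the BCMA family, Tnfsf13b (BAFF) rose by 0.58 and 1.05 and then 0.92 and 0.92, and Tnfrsf13b, the receptor TACI, by 1.09 and 0.93 and then 1.91 and 1.76. DEX in HDM.AIR mice lowered Tnfsf13b by 0.57 and 0.64, whereas Tnfsf13 (APRIL), a ligand of BCMA, had 0.23, adjusted p = 0.105 in airway and 0.19, adjusted p = 0.194 in parenchyma. In PBS parenchyma smoke raised Pigr, the receptor that carries polymeric IgA across epithelium, by 3.21.

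Levels of the members were also set against each other over all libraries, which share tissues, exposures and library preparation. Pearson's r of log2 CPM was 0.92 between Ms4a1 and Pax5 and 0.96 between Mzb1 and Jchain, 0.79 between Ms4a1 and Mzb1 and 0.76 between Ms4a1 and Irf4, but 0.27 between Ms4a1 and Prdm1 and -0.02 between Ms4a1 and Sdc1. After the mean of each group was taken out, these 6 values were 0.85, 0.84, 0.72, 0.69, -0.10 and -0.09. The genes most like Ms4a1 included Bank1 and Cxcr5 (r of 0.98 each), and those most like Pax5 included H2-Ob (0.95) and Siglecg (0.94). Irf4 was most like Nuggc (0.95), Slamf7 (0.94) and Mzb1 (0.94), and Tnfrsf17 like Jchain (0.94), Igkc (0.93) and Mzb1 (0.92). Mzb1 was most like Igkc, Jchain and Iglv1 (0.96 each), and Jchain like Igkc (0.99), Igha (0.98) and Iglv1 (0.98). Part of this likeness lay between groups, and within groups Irf4 and Nuggc had 0.63. The likeness was not confined to genes of B cells and plasma cells. Irf4 had 0.90 with Cd4 and 0.89 with Cd3e, both of the T cell list, and 0.71 and 0.65 within groups. With Cd3e, Mzb1 had 0.87 and Ms4a1 0.83, against 0.38 for Prdm1 and 0.17 for Sdc1. The nearest genes were less alike for Prdm1, namely Cxcr4 (0.79), AU020206 (0.78) and Arhgef6 (0.77), and for Sdc1, namely P4hb (0.81), Stxbp2 and Sec1 (0.80 each).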

How the data were processed

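Bulk RNA-seq of airway and parenchyma was analysed from a table of estimated counts per gene in all libraries that the authors deposited. The submitters' processing notes name bcl2fastq 2.20.0.422, STAR 2.5.1b, RSEM 1.2.31, kallisto 0.44.0 and build mm10; which quantifier made the table is not given in the sources used here. Of its non-zero values 20.3% were not whole. Such estimates share reads among near-identical genes, which bears on the IgG genes. Of 43346 Ensembl identifiers 42462 matched GENCODE M21 without their versions. No extraction batch or sequencing date was given in the sources used here, and no 2 libraries of a group were alike within sampling noise.

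Libraries were grouped by week, tissue and exposure from their labels, 4 groups at 3 weeks and 16 at 11 weeks. A gene was tested if 9 or more libraries reached the CPM that 10 counts give a library of median size. The test was done with limma-voom (TMM factors, limma 3.58.1, edgeR 4.0.16, R 4.3.3), with one mean per group, in separate fits of the 43 libraries at 3 weeks and the 160 at 11 weeks, and in one fit of all libraries for duration. Benjamini-Hochberg adjustment ran over all genes tested, in 34 comparisons and 10 interactions, and all tests were two-sided. The procedure was tested beforehand on simulated counts for the HDM comparison in airway at 3 weeks, with changes planted in genes of higher counts. That trial does not cover genes of low counts, the other fits or the interactions.

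Alternatives were edgeR's quasi-likelihood test and DESeq2 1.42.0 on rounded counts, DESeq2 size factors, a stricter filter (9 libraries reaching a CPM of 10), testing every gene with counts, all libraries in one fit, and library quality weights. Leaving out the 31 libraries with at least 25 CPM of Glycam1, and the 7 libraries that stood apart, were added after the data were seen.

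The 8 genes and all gene lists were chosen with earlier results of these data known. Besides the 8, genes were named by rule: the 3 with the highest Pearson r with each member over all libraries (log2 CPM, prior count 2), the largest rise and fall of each list, and Cd79a, Xbp1, Pou2af1, Tnfsf13b, Tnfsf13, Tnfrsf13b, Cxcl13, Ighm, Igha, Ighg1 and Igkc. Some genes that this rule names are not reported here. Glycam1, Pigr and the list genes named to describe a list stand outside it where they are not its extremes. Figures were drawn with matplotlib 3.10.9.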

Additional observations from a re-analysis of the deposited data

Results flagged for a closer look

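Single libraries stood apart from the rest of their group in 6 cases, each being 1 of the 8 genes in 1 group of 10 libraries. The 8 genes were examined in the 18 groups of that size. The gap from the outermost library to its neighbour was compared with the range of the group, and chance alone marks about 1 group in 20 this way, so that 6 cases are no more than chance would mark. At 11 weeks Pax5 was at 0.234 CPM in 1 PBS.AIR.DEX airway library, against 0.900 to 3.58 CPM in the other 9. Sdc1 reached 309.6 CPM in 1 PBS.CS parenchyma library, against 235 to 272 CPM in the rest. It reached 526 CPM in 1 HDM.CS.DEX parenchyma library, where the others stood at 252 to 351 CPM and where Epcam was also highest of the group at 108.9 CPM. Mzb1 was 30.2 CPM in 1 PBS.AIR airway library with 723 CPM of Glycam1, against 6.73 to 12.6 CPM in the rest. Jchain was 259 CPM in 1 PBS.AIR parenchyma library, against 24.1 to 81.7 CPM, and 12.4 CPM in 1 PBS.CS.DEX parenchyma library, against 29.2 to 54.8 CPM. The first of these had 453 CPM of Ighg1 and 0.124 CPM of Glycam1. Whether a technical or a biological difference set these libraries apart was not tested.

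Of 80 tests of whether an effect differed between conditions, 10 for each gene, 17 passed by limma-voom. Tests between tissues took the tissues as independent. For Prdm1 the HDM effect was larger in airway than in parenchyma by 0.59 at 3 weeks (adjusted p = 0.0468) and 1.08 at 11 weeks (adjusted p = 6.63e-06). In that direction 1883 of 17381 genes passed at 3 weeks and 2319 of 18250 at 11 weeks, each share near 1 of 8 members. For the other tests named here, the shares of all genes are given above. The log2 fold change with smoke at 11 weeks was more negative in HDM than in PBS mice for Irf4 (-1.14), Mzb1 (-1.35) and Jchain (-1.89) in airway. In parenchyma it was more negative for Irf4 (-1.49), Tnfrsf17 (-1.26), Sdc1 (-0.37), Mzb1 (-1.61) and Jchain (-2.35). The log2 fold change with DEX under air was more negative in HDM than in PBS mice for Irf4 in airway (-1.20). The HDM effect was larger at 11 than at 3 weeks for Tnfrsf17 (2.21), Mzb1 (1.71) and Jchain (2.66) in airway, and for Tnfrsf17 (2.63), Mzb1 (1.78) and Jchain (2.88) in parenchyma.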

How the results depend on the processing

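No paired analysis was possible because the library codes give the groups no shared replicate numbers. Of 604 recomputed counts of members called, 558 stayed within 1.5 times their value, as did 73 of 88 counts of members past an interaction test. Of 2956 recomputed log2 fold changes, 2736 kept their direction and their side of the threshold, 90 newly passed, 16 turned direction and the others no longer passed. edgeR and DESeq2 each ended between 21 and 23 calls, the most of any alternatives, and DESeq2 size factors ended 5. The filter at a CPM of 10 left 6 or 7 of the 8 members to be tested, which bears on its lower counts. Where not stated beside a value, the cause was not tested.

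In PBS mice at 3 weeks, members called higher in airway than in parenchyma went from 2 to 1 with the stricter filter, one fit of all libraries, quality weights, and without the Glycam1 libraries or the 7 that stood apart. In PBS.AIR mice at 11 weeks they went from 2 to 1, and those called lower from 1 to 0, by edgeR, by DESeq2, with the stricter filter, with weights and without the Glycam1 libraries. For HDM, members called higher went from 5 to 3 in airway under AIR.DEX and under CS, and from 6 to 2 in parenchyma under CS.DEX, all with the stricter filter.

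For smoke, members called lower in HDM airway went from 2 to 1 by DESeq2, with the stricter filter and in one fit of all libraries. In PBS.DEX airway they went from 0 to 1 without the 7 libraries, and in PBS.DEX parenchyma from 2 to 0 with the stricter filter and to 1 without the 7. In HDM.DEX parenchyma they went from 2 to 1 with the stricter filter.

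For DEX, members called lower in PBS.AIR airway went from 2 to 0 by edgeR, by DESeq2, with weights and without the 7 libraries, and to 1 with the stricter filter and with none. In PBS.CS airway they went from 4 to 2 by edgeR and DESeq2. With the stricter filter they went from 4 to 2 in PBS.AIR parenchyma, from 5 to 2 in PBS.CS parenchyma and from 5 to 3 in HDM.CS parenchyma.

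Between 11 and 3 weeks, members called lower in PBS airway went from 2 to 4 by edgeR and DESeq2 and to 1 with weights and without the 7. In PBS parenchyma they went from 2 to 1 with the stricter filter and with weights, and to 4 without the 7. In HDM mice those called higher went from 2 to 1 in each tissue with the stricter filter, and those called lower in airway from 0 to 1 without the Glycam1 libraries. Members past the test of the tissue difference at 3 weeks went from 1 to 0 with DESeq2 size factors, the stricter filter and no filter, to 2 by edgeR, by DESeq2 and without the Glycam1 libraries, and to 3 with weights. At 11 weeks they went from 1 to 2 by edgeR, by DESeq2, with no filter and without the 7. Members past the HDM by DEX test in parenchyma went from 0 to 1 by edgeR, by DESeq2 and without the Glycam1 libraries, and to 2 with weights.

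The 16 values that turned direction did not pass where they turned. For HDM at 3 weeks in parenchyma Pax5 turned to -0.0359 by edgeR and -0.0584 with weights. Ms4a1, airway less parenchyma in PBS at 3 weeks, turned to 0.19 by edgeR, 0.23 by DESeq2, 0.0318 with the stricter filter and 0.022 with none. For smoke in PBS mice Ms4a1 turned to 0.16 with weights and 0.15 without the 7 libraries in airway, and in parenchyma Tnfrsf17 turned to -0.026 by edgeR, -0.039 by DESeq2 and -0.0761 with weights, Mzb1 to 0.11 without the 7, and Ighg1 to -0.25 by edgeR and -0.26 by DESeq2. For DEX in PBS.AIR airway Prdm1 turned to -0.0894 with weights and -0.30 without the Glycam1 libraries. The mean of Sdc1 in PBS parenchyma at 3 weeks moved by more than its SD, to 215 CPM without TMM factors.

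Depth limited Tnfrsf17 and Pax5, which held few counts in parenchyma of PBS mice given DEX. Prdm1, Irf4 and Sdc1 are made by other cells too, and bulk levels do not tell them apart.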
